A study of Mus musculus with 6 samples.

Results

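The 9 genes described here encode the enzymes and cofactors that place, copy and remove methyl groups on DNA cytosines: Dnmt1, Uhrf1, Dnmt3a, Dnmt3b, Dnmt3l, Tet1, Tet2, Tet3 and Tdg. Every array probe that carried one of these symbols, or an older symbol of the same gene, was taken, which gave 16 of the 41174 probes that were not controls. The rule used gene symbols and no measured value. The cells were male mouse primordial germ cells of a mixed C57BL/6 and 129SV background, derived in culture from Oct4-GFP reporter embryonic stem cells, so they model germ cells of the embryo without a gonad around them. They carried 1 of 2 short hairpin vectors against Dazl, an RNA-binding protein gene of germ cells, or a control vector. All vectors also held a tdTomato marker. GFP and tdTomato double-positive cells were sorted at day 12 and at day 9, and their total RNA was measured on Agilent 1-colour arrays, with 1 array each for hairpin 1, hairpin 2 and the control vector at each day.

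DNA methylation is placed on unmethylated DNA by DNMT3A and DNMT3B, which the catalytically inactive cofactor DNMT3L assists. It is copied after replication by DNMT1, which UHRF1 brings to half-methylated sites. TET1, TET2 and TET3 oxidise 5-methylcytosine, and the glycosylase TDG cuts out the oxidised bases for repair. Primordial germ cells of the mouse embryo are known for erasing most of their DNA methylation, and male germ cells lay down a new pattern before birth with DNMT3A and DNMT3L. The arrays measured RNA of these genes and not methylation itself.

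Promoter sequences are shown for 4 of the genes that place and copy methylation, since these genes had the differences described below. They come from RefSeq on GRCm38.p6, whose windows of 250 bases before a start site covered all 9 genes with 16 windows, and each is written 5′ to 3′ on the strand of its gene. Dnmt1 (chr9:20952824-20952873, minus strand) and Uhrf1 (chr17:56304097-56304146, plus strand) are shown for the 50 bases around an octamer of the E2F type, in capitals, that both promoters hold.
Dnmt1: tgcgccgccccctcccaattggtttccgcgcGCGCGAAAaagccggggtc
Uhrf1: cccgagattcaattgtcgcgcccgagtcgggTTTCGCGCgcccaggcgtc
Dnmt3b (chr2:153649199-153649448, plus strand) and Dnmt3l (chr10:78042037-78042286, plus strand) are shown whole, with each CpG, the dinucleotide that these enzymes methylate, in capitals.
Dnmt3b: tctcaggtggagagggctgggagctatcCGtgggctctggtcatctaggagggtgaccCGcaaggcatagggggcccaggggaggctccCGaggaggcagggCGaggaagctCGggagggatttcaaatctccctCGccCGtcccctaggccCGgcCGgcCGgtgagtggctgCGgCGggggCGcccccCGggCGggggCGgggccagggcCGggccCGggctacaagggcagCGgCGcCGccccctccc
Dnmt3l: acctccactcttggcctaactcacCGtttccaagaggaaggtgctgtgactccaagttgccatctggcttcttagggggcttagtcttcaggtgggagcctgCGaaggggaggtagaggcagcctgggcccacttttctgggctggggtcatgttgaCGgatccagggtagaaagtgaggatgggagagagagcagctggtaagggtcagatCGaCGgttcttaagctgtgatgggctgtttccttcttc

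The Dnmt3b window held 21 CpG and the Dnmt3l window of the same length 5, against a median of 6 over 32851 RefSeq windows. The other windows of Dnmt3l held 4 and 3. Tet2 held 51 CpG, more than in 99.9% of all windows, and the windows of Dnmt3a held 38, 40 and 15. Those of Dnmt1 held 2, 7 and 26 and those of Uhrf1 10 and 30, while Tet1 had 15, Tet3 17 and Tdg 19. Dnmt3l was thus the only member gene with no window above the median of all windows. The plot of CpG counts shows the members against all windows.

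**Figure D1:**
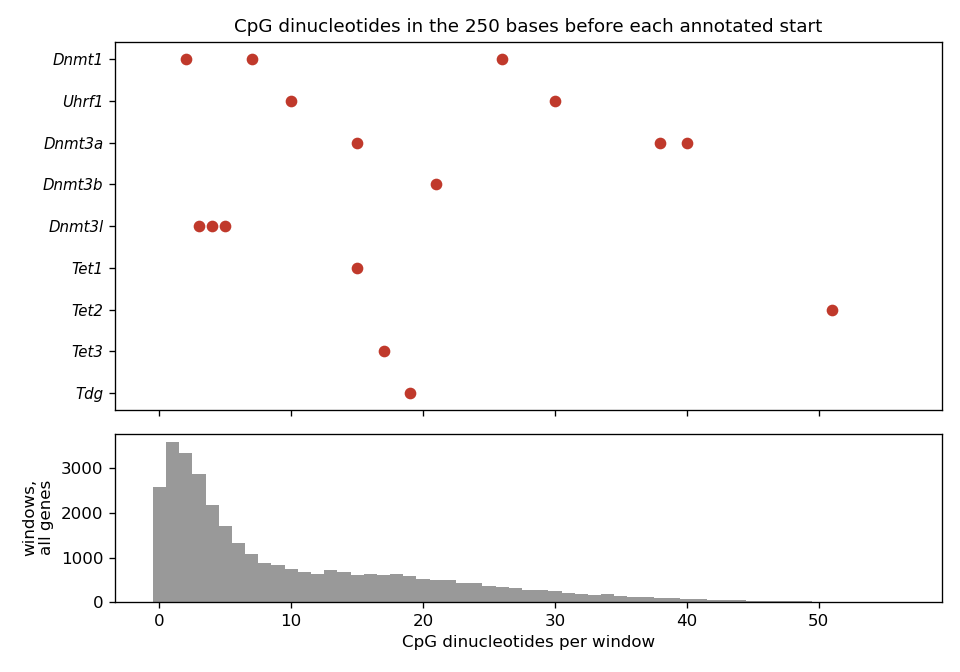
CpG dinucleotides in the 250 bases before each RefSeq start site (x axis) of the 9 genes, with 1 point per start site, beside the distribution over 32851 windows. Tet2 has 51 and the 3 windows of Dnmt3l have 3 to 5, on both sides of the overall median of 6.

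E2F proteins switch on genes of DNA replication, and 5 octamers of the E2F type were searched on both strands: TTTGGCGC, TTTCCCGC, TTTCGCGC, TTTGGCGG and TTTCGCGG. Any of these stood in 2 of the 16 member windows and in 2.17% of all windows. Both member windows held TTTCGCGC, which 0.256% of all windows hold. In Dnmt1 it began 219 bases before the third start site and lay on the other strand, so it reads GCGCGAAA above, and in Uhrf1 it began 185 bases before the second. The GC box GGGCGG stood in 11 of 16 member windows and in 32.7% of all windows, and CCAAT in 6 of 16 and in 33.8%. These matches describe letters in the windows and do not show binding.

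The arrays were of like quality. The 75th percentile of the processed signal lay between 629 and 746, and 70.3% to 73.3% of probes were well above background. Across genes, each by its brightest probe, r between arrays was 0.982 to 0.994. The 2 Dazl probes were lower on all 4 knockdown arrays than on both control arrays. Probe A_51_P246060 had processed signals of 48.3 and 36.3 at day 12 and 23.2 and 24.8 at day 9 in knockdown cells, against 1330 and 499 in control cells, and fell by 4.72 on the log2 scale (SE 0.17, limma adjusted p = 0.00464). Of 13 germ cell markers 12 were measured. Their summed signal, in units of the array's 75th percentile, was 107 to 117 in knockdown and 101 to 121 in control cells. The sum includes Dazl, and bright genes weigh most in it. Of the 12 markers 4 were higher and 8 lower in knockdown cells, where 53.2% of all probes were lower. Pou5f1 had a log2 difference of 0.70 (SE 0.16) and Dppa3 -0.62 (SE 0.28), so like sums do not show that single markers were unchanged. Since the 3 arrays of a day lay on 1 slide, an effect of day and one of slide cannot be told apart. All 16 member probes were well above background on all 6 arrays, and none was saturated.

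Dazl knockdown against the control vector was the main comparison and asks which other RNAs differ when Dazl is low. The genes that place and copy DNA methylation had lower values in knockdown cells, and the genes that remove it had no common direction. The log2 difference was below 0 for all 5 of Dnmt1, Uhrf1, Dnmt3a, Dnmt3b and Dnmt3l by the brightest probe, with a median of -0.39 and a range of -0.57 to -0.22, and for all 8 of their probes. Among all 30190 probes tested, 53.2% were below 0 and the median was -0.02. No member passed in the limma fit over all probes at an adjusted p under 0.05, 0 of 16 against 0.00662% of all probes. At an unadjusted p under 0.05 there were 2 of 16 member probes, 1 each of Dnmt3b and Dnmt3a, against 9.87% of all probes. All 4 knockdown arrays lay below both controls for 5 of 16 member probes, against 11.9% of all probes, and lay above both for 0 of 16, against 8.65%. Since RNA came from whole sorted populations, fewer cells that express a gene and less RNA per cell cannot be told apart.

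Log2 levels below are relative to the 75th percentile of the array, which is 0, and levels of different probes cannot be set against each other. Nothing in the labels says that the arrays stand for separate cultures, and the p-values cover only their spread, which may be technical.

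**Figure D2:**
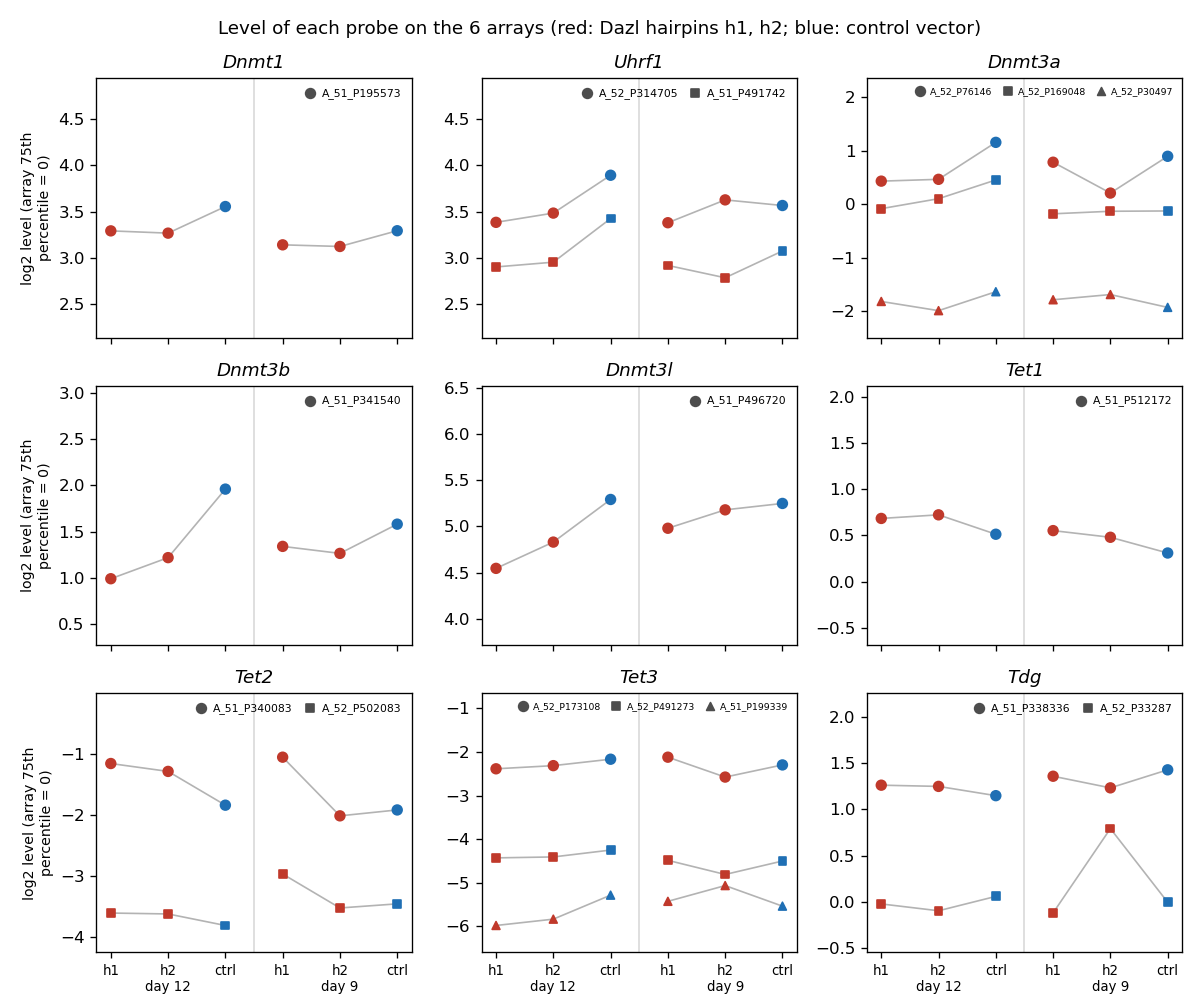
Log2 level of each member probe (y axis, array 75th percentile at 0) on the arrays of hairpin 1 (h1), hairpin 2 (h2) and the control vector (ctrl) at day 12 and day 9, with 1 point per array and the marker showing the probe. For Dnmt1, Dnmt3b and Dnmt3l the 4 knockdown arrays lie below both controls, and the day 12 control is the highest array.

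Dnmt3b (probe A_51_P341540, NM_010068, chromosome 2), a de novo methyltransferase, had the widest range of log2 levels among the 9 genes, 0.97. Its log2 levels were 0.99 and 1.22 at day 12 and 1.34 and 1.26 at day 9 in knockdown cells, against 1.96 and 1.58 in control cells at those days. The knockdown arrays all lay below the lower of the controls, and the day 12 control stood highest. The mean was 1.20 ± 0.15 in knockdown cells and 1.77 ± 0.27 in control cells (SD, n = 4 and 2). The log2 difference was -0.57 (SE 0.19, 95% interval -1.02 to -0.11, limma adjusted p = 0.443), or 0.675-fold. It was lower in 4 of 4 pairs of a knockdown array and the control of its day. Without the day 12 control, which leaves the day 9 pairs to set the value, the difference was -0.28, and without the day 9 control it was -0.85. Whether this probe also reads Dnmt3c, a close copy of Dnmt3b in mice, was not tested.

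Dnmt3a (NM_007872, chromosome 12), the other de novo methyltransferase, was measured by 3 probes that disagreed. On the brightest, A_52_P76146, log2 levels were 0.43 and 0.46 at day 12 and 0.78 and 0.21 at day 9 in knockdown cells, against 1.16 and 0.90 in control cells. The groups did not overlap, with means of 0.47 ± 0.24 (SD, n = 4) and 1.03 ± 0.18 (SD, n = 2), but hairpin 1 at day 9 was only 0.11 below its control. The log2 difference was -0.55 (SE 0.21, 95% interval -1.06 to -0.05, limma adjusted p = 0.477). On A_52_P169048, log2 levels were -0.08 and 0.10 at day 12 and -0.18 and -0.13 at day 9 in knockdown cells, against 0.45 and -0.13 in control cells. Here the day 12 control alone stood high and the other arrays lay close together, and the log2 difference was -0.24 (SE 0.16). On A_52_P30497 knockdown cells had -1.82 and -1.99 at day 12 and -1.79 and -1.69 at day 9, and control cells -1.64 and -1.93. The groups overlapped and the log2 difference was -0.04 (SE 0.17).

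Dnmt3l (probe A_51_P496720, NM_019448, chromosome 10) encodes the cofactor that germ cells use for de novo methylation. Its log2 levels were 4.55 and 4.83 at day 12 and 4.98 and 5.18 at day 9 in knockdown cells, against 5.29 and 5.25 in control cells. The controls were nearly equal and every knockdown array lay below them, farthest with hairpin 1 at day 12. The mean was 4.88 ± 0.27 in knockdown cells and 5.27 ± 0.03 in control cells (SD, n = 4 and 2), a log2 difference of -0.39 (SE 0.18, 95% interval -0.83 to 0.06, limma adjusted p = 0.553). It was -0.17 without the day 12 control and -0.60 without the day 9 control.

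Dnmt1 (probe A_51_P195573, NM_010066, chromosome 9), the maintenance methyltransferase, had log2 levels of 3.29 and 3.27 at day 12 and 3.14 and 3.12 at day 9 in knockdown cells, against 3.56 and 3.29 in control cells. Each knockdown array was below its control by 0.15 to 0.29, and the highest of them was just below the lower control. The mean was 3.21 ± 0.09 in knockdown cells and 3.42 ± 0.18 in control cells (SD, n = 4 and 2), a log2 difference of -0.22 (SE 0.13, 95% interval -0.55 to 0.11, limma adjusted p = 0.647).

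Uhrf1 (NM_010931, chromosome 17), the partner that guides DNMT1, was measured by 2 probes. On A_52_P314705, the brighter, log2 levels were 3.38 and 3.48 at day 12 and 3.38 and 3.63 at day 9 in knockdown cells, against 3.89 and 3.57 in control cells. Hairpin 2 at day 9 stood above the control of its day, so the groups overlapped. The log2 difference was -0.26 (SE 0.17, limma adjusted p = 0.662), and it was -0.06 without the day 12 control and -0.46 without the day 9 control. On A_51_P491742, knockdown cells had 2.90 and 2.95 at day 12 and 2.92 and 2.79 at day 9, and control cells 3.43 and 3.07. These groups did not overlap, and the log2 difference was -0.36 (SE 0.15, limma adjusted p = 0.509).

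Among the genes that remove methylation, Tet1 and Tet2 had higher values in knockdown cells without passing the test. Tet1 (probe A_51_P512172, listed on the array as Cxxc6, chromosome 10), a TET gene of embryonic stem cells, had log2 levels of 0.68 and 0.72 at day 12 and 0.55 and 0.48 at day 9 in knockdown cells, against 0.51 and 0.31 in control cells. It was higher in 4 of 4 pairs, which held for 1 of 16 member probes and 14.9% of all probes. Lower values in 4 of 4 pairs held for 6 of 16 member probes and 19.1% of all probes. The Tet1 groups overlapped, with means of 0.61 ± 0.11 (SD, n = 4) and 0.41 ± 0.14 (SD, n = 2), and the log2 difference was 0.20 (SE 0.13, 95% interval -0.13 to 0.52, limma adjusted p = 0.674).

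Tet2 (NM_001040400, chromosome 3) on its brighter probe, A_51_P340083, had log2 levels of -1.16 and -1.29 at day 12 and -1.06 and -2.02 at day 9 in knockdown cells, against -1.84 and -1.92 in control cells. Hairpin 2 at day 9 stood below both controls and the other knockdown arrays above them. The log2 difference was 0.50 (SE 0.28, 95% interval -0.18 to 1.19, limma adjusted p = 0.614), and 0.72 without hairpin 2 at day 9 or 0.31 without hairpin 1 at day 9. On A_52_P502083, Tet2 had -3.61 and -3.62 at day 12 and -2.97 and -3.53 at day 9 in knockdown cells, and -3.81 and -3.46 in control cells. The same array of hairpin 1 at day 9 stood highest, and the log2 difference was 0.20 (SE 0.19).

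Tet3 (chromosome 6), the TET gene of the egg, was measured by 3 probes, none of which separated the groups. Like the Tet1 probe, these were assigned by an older symbol alone, since their accessions are not in the RefSeq table used, and their place in the gene was not checked. A_52_P173108, the brightest, had log2 levels of -2.39 and -2.31 at day 12 and -2.12 and -2.58 at day 9 in knockdown cells, against -2.17 and -2.30 in control cells, a log2 difference of -0.12 (SE 0.18). This difference was -0.22 without hairpin 1 at day 9, -0.03 without hairpin 2 at day 9, -0.05 without the day 12 control and -0.18 without the day 9 control. A_52_P491273 had -4.43 and -4.41 at day 12 and -4.49 and -4.81 at day 9 in knockdown cells, against -4.25 and -4.51 in control cells, a difference of -0.16 (SE 0.16). A_51_P199339 had -5.99 and -5.84 at day 12 and -5.43 and -5.07 at day 9 in knockdown cells, against -5.29 and -5.54 in control cells, a difference of -0.17 (SE 0.25). On this dim probe both hairpins lay below the control at day 12 and above it at day 9.

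Tdg (chromosome 10), the glycosylase, was measured by 2 probes, and its groups overlapped on both. A_51_P338336 had log2 levels of 1.26 and 1.25 at day 12 and 1.36 and 1.23 at day 9 in knockdown cells, against 1.15 and 1.43 in control cells, a log2 difference of -0.01 (SE 0.14, 95% interval -0.37 to 0.34). On A_52_P33287 the processed signals, before scaling, were 674 and 595 at day 12 and 604 and 1290 at day 9 in knockdown cells, against 729 and 627 in control cells. Hairpin 2 at day 9 alone stood high there, at a log2 level of 0.79, while the other Tdg probe was not high on that array. The log2 difference was 0.11 (SE 0.28).

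**Figure D3:**
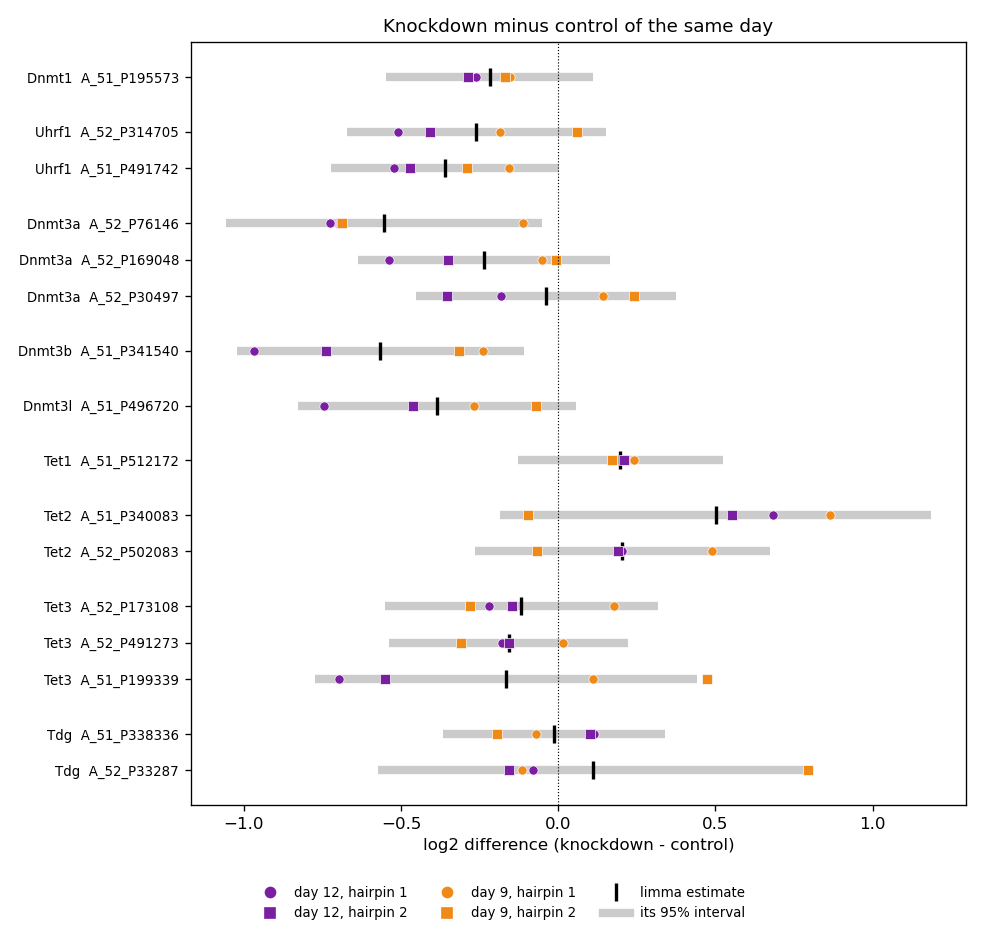
Log2 difference of each knockdown array from the control array of its day (x axis) for the 16 probes, with the limma estimate as a black tick and its 95% interval as a grey bar. The probes of Dnmt1, Dnmt3b and Dnmt3l have all 4 points left of 0, and Tet1 has all 4 right of 0.

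The knockdown differences of the placing and copying genes were compared between the days. By the brightest probe their log2 differences at day 12 ran from -0.85 to -0.28 with a median of -0.60. Those at day 9 ran from -0.40 to -0.06 with a median of -0.17, and 5 of 5 genes were lower at each day. Of all 8 probes of these genes, 8 were lower at day 12 and 7 at day 9, where Dnmt3a probe A_52_P30497 had 0.19. The median over all probes tested was -0.02 at day 12 and -0.03 at day 9. All differences of a day share 1 control array, so the genes are not separate evidence. At day 12 Dnmt3b had -0.85 (SE 0.25, limma adjusted p = 1), Dnmt3a -0.71 (SE 0.32), Dnmt3l -0.60 (SE 0.26), Uhrf1 -0.46 (SE 0.25) and Dnmt1 -0.28 (SE 0.23). At day 9 the same genes had -0.28, -0.40, -0.17, -0.06 and -0.16, with SE of 0.23 to 0.32. No probe of any gene was called at either day or in the difference between the days, 0% of 30190 in each. At an unadjusted p under 0.05 there were 1 of 16 member probes at day 12, that of Dnmt3b, against 4.6% of all probes, and 0 of 16 at day 9, against 3.8%. The difference of the Dnmt3b effects, day 12 minus day 9, was -0.58 (SE 0.35, 95% interval -1.46 to 0.31), so the effects at the 2 days were not shown to differ. The day 12 control was the highest of the 6 arrays for 9 of 16 member probes and 5 of 9 genes, and it enters each of these day 12 differences. How often that array was highest among all probes was not counted, so this is not shown to be particular to the members.

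Day 12 against day 9 asks how the genes differ between these days of differentiation. No member passed the limma test, 0 of 16 probes against 0.0563% of all probes, and 0 of 16 had an unadjusted p under 0.05, against 10.7%. By the brightest probe 6 of 9 genes were higher at day 12 and 3 lower, with a median log2 difference of 0.05, while 49.4% of all probes were lower. Dnmt1 was higher at day 12 with all 3 vectors, by 0.15, 0.14 and 0.26, a log2 difference of 0.19 (SE 0.13, limma adjusted p = 0.665), and Tet1 likewise, 0.19 (SE 0.13, adjusted p = 0.652). Higher values with all 3 vectors held for 4 of 16 member probes, against 20.4% of all probes, and lower ones for 1 of 16, against 18.5%.

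The day 12 arrays lay above all day 9 arrays for 2 of 16 member probes, against 8.69% of all probes, and below them for 1 of 16, against 7.59%. The first were Dnmt3a probe A_52_P169048, with a log2 difference of 0.30 (SE 0.15), and Tet3 probe A_52_P491273, with 0.24 (SE 0.15). The last was Tet2 probe A_52_P502083, with -0.36 (SE 0.18, limma adjusted p = 0.552), while the brighter Tet2 probe had 0.23 (SE 0.26), so the Tet2 probes disagreed in direction. Dnmt3l had -0.25 (SE 0.17), lower at day 12 with both hairpins and 0.04 higher with the control vector. That difference was -0.12 without hairpin 1 at day 12, -0.15 without hairpin 2 at day 9 and -0.39 with either 1 of the control arrays left out. Dnmt3b had -0.01 (SE 0.18), lower with both hairpins and 0.38 higher with the control vector. Uhrf1 had 0.06 (SE 0.16) and Tdg -0.12 (SE 0.14), or -0.04 for Tdg with either 1 of the control arrays left out.

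**Figure D4:**
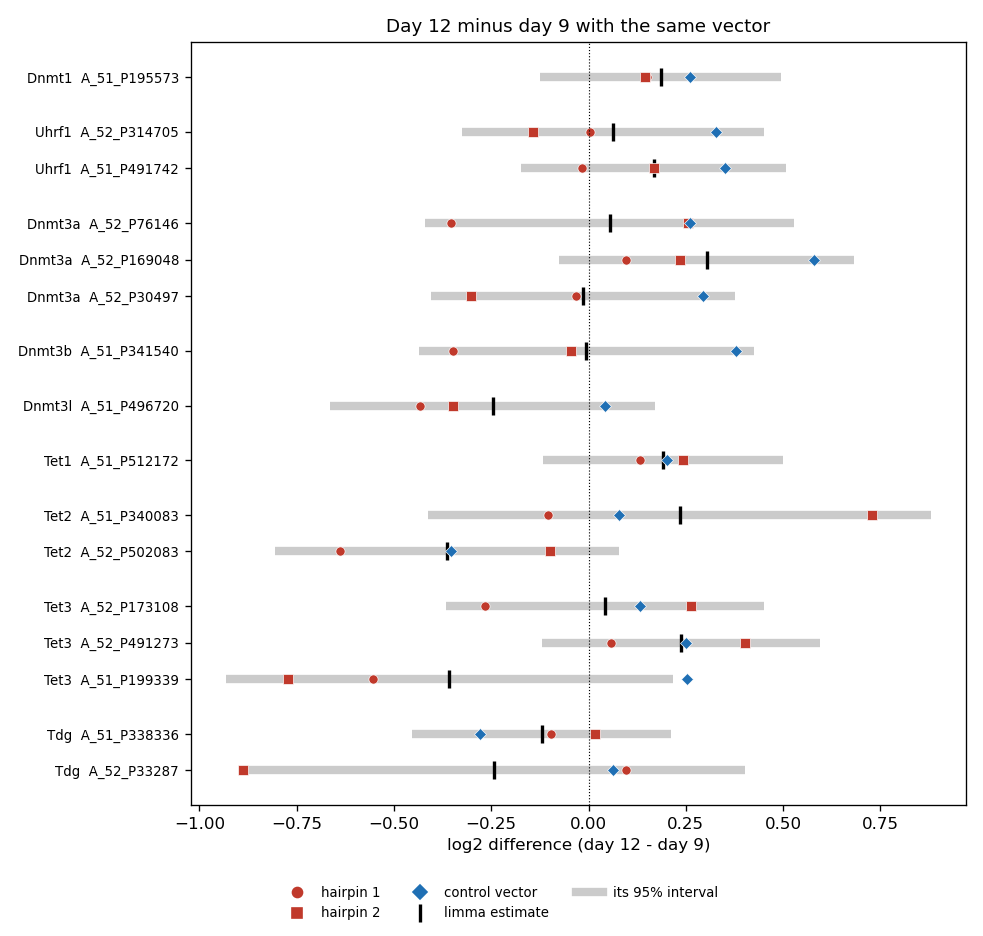
Log2 difference of day 12 from day 9 with the same vector (x axis) for the 16 probes, with the limma estimate as a black tick and its 95% interval as a grey bar. Dnmt1 and Tet1 have all 3 points right of 0, and for Dnmt3b the control vector stands at 0.38 while both hairpins lie below 0.

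The hairpins were compared with each other, hairpin 2 against hairpin 1 over both days, and 6 of 9 genes had a difference below 0, as did 48.4% of all probes. No member passed, 0 of 16 probes against 0.00331% of all probes, and none had an unadjusted limma p under 0.05, against 10.7%. Tet2 had the largest difference by its brightest probe, -0.54 (SE 0.25, limma adjusted p = 0.50), set mainly at day 9, and its other probe had -0.29 (SE 0.20). Dnmt3l had 0.24 (SE 0.20), Dnmt3a -0.27 (SE 0.22), Dnmt3b 0.08 (SE 0.22) and Dnmt1 -0.02 (SE 0.17). The second Tdg probe had 0.42 (SE 0.29), which rests on the high array at day 9.

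Genes that work with the members were taken from lists of textbook roles. A list of partners of maintenance methylation also held the tRNA methyltransferase gene Trdmt1. Of its measured genes 10 of 10 were lower in knockdown cells, against 53.2% of all probes, with a median log2 difference of -0.18, and none passed. Hells, a chromatin remodeller needed for DNA methylation, had -0.49 (SE 0.17, limma adjusted p = 0.466), the histone deacetylase Hdac2 -0.36 (SE 0.39) and Dmap1, which binds DNMT1, -0.29 (SE 0.14). Of 10 genes of the methyl-CpG-binding domain family and of zinc finger readers of methylated CpG, 6 were higher and 4 lower with a median of 0.06. Not every member of that family binds methylated CpG. The zinc finger reader Zbtb38 had -0.67 (SE 0.28), the family member Mbd6 0.34 (SE 0.16) and Zbtb4 0.22 (SE 0.27), and none passed. At day 12 against day 9, 8 of the 10 genes of the maintenance list were higher with a median of 0.14, led by Hdac2 with 0.63 (SE 0.37), Hells with 0.32 (SE 0.16) and Pcna, the replication clamp, with 0.22 (SE 0.14). Of the 10 genes of the binding domain and reader list 3 were higher and 7 lower, with a median of -0.09, among them Mbd1 with -0.25 (SE 0.14).

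Base excision repair, which completes the removal that TDG begins, had 7 genes higher and 7 lower of 14 in knockdown cells, with a median log2 difference of 0.03. Neil3 had 0.41 (SE 0.17, limma adjusted p = 0.501), Parp1 -0.29 (SE 0.22) and Neil2 -0.26 (SE 0.23). Between the days the DNA glycosylase Neil2 had -1.03 at day 12 against day 9 (SE 0.21, limma adjusted p = 0.174), a larger difference than any member had. Mbd4, a glycosylase that also reads methylated CpG and so stands in both lists, had 0.31 (SE 0.20), and the ligase Lig3 -0.31 (SE 0.19). Of 7 cytidine deaminases and Gadd45 genes, 4 were higher in knockdown cells, led by Apobec3 with 0.54 (SE 0.18), Apobec2 with 0.43 (SE 0.18) and Apobec1 with 0.32 (SE 0.16). Between the days 5 of the 7 were higher with a median of 0.175, with Apobec2 at 0.37 (SE 0.17) and Gadd45b at -0.27 (SE 0.16). None of the 7 passed in either contrast.

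**Figure D5:**
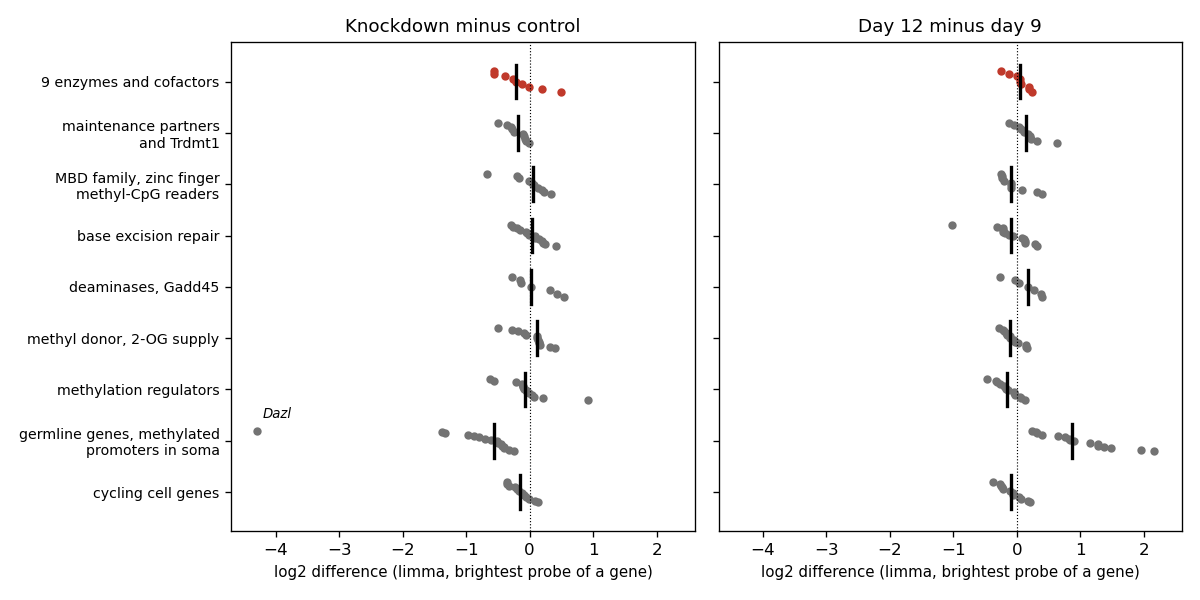
Log2 difference by the brightest probe of each gene (x axis), knockdown minus control on the left and day 12 minus day 9 on the right, for the 9 members in red and 8 other gene lists in grey. The black tick is the median of a list, which is -0.22 for the members, -0.18 for maintenance partners with Trdmt1 and 0.03 for base excision repair in the knockdown panel.

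Summed levels of genes of other cell types and of cell division are given beside these differences, and their part in them was not tested. Dnmt1 and Uhrf1 are known to be transcribed mainly in cells that replicate DNA. The summed signal of 12 of 12 measured cycling cell genes, in units of the array's 75th percentile, was 272 to 300 in knockdown and 329 to 348 in control cells, with no overlap. Most of that sum came from the 2 brightest, Mcm6 and Mcm3, each with a log2 difference of -0.36 (SE 0.15). Without them, a choice made after seeing the data, the sum of the other 10 was 112 to 139 in knockdown and 126 to 130 in control cells, which overlap. Of the 12 genes 10 had a lower value, against 53.2% of all probes, with a median log2 difference of -0.15. For 2 of the 12 all knockdown arrays lay below both controls, against 11.9% of all probes. The summed signal of 8 of 9 endoderm markers was 2.16 to 3.51 in knockdown and 1.55 to 1.76 in control cells. Of these 8 genes 7 were higher, with Afp at 2.26 (SE 0.24), and 1 lower, Amn at -0.19 (SE 0.23). The hairpins differed here: hairpin 2 against hairpin 1 had an unadjusted limma p under 0.05 for 4 genes lower and 1 higher, against 10.7% of all probes. Cubn had -2.40 (SE 0.33) in that contrast. The summed signal of 8 of 8 fibroblast markers was 3.51 to 8.04 in knockdown and 2.14 to 5.46 in control cells, which overlap. Within each day both hairpins had a higher sum than the control. At day 12 they had 3.51 and 7.19 against 2.14, and at day 9 they had 5.61 and 8.04 against 5.46. Of these 8 genes 8 were higher in knockdown cells, with a median log2 difference of 0.79, where 53.2% of all probes were lower. Col3a1 had 1.48 (SE 0.45) in the knockdown contrast. None of these markers passed the limma test, and none of those summed was below background on all 6 arrays.

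Over the 6 arrays, the gene whose level followed that of Dnmt3b most closely was Sncaip, with Pearson's r of 0.992. Airn (r = 0.983), Tnnt3 (r = 0.98), an unnamed transcript (r = 0.977) and Net1 (r = 0.976) came next. They were chosen for this likeness among 12587 genes that passed a minimum range set from that of Dnmt3b, and all 5 share the day 12 control as their highest array.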

How the data were processed

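Total RNA of 6 samples was hybridised to Agilent 1-colour whole-genome arrays, 1 array per sample. The deposited scanner files held a processed spot intensity that the authors made with Agilent Feature Extraction 9.1.3.1, background-subtracted and, per the file headers, not normalized between arrays. Those files also held a background-subtracted signal, which is not the processed intensity used for the levels here. The deposited table held a ratio, that background-subtracted signal over a constant particular to the array. This was tested on the values: each of the 41529 rows was paired with 1 spot and no other through its quality scores, a deposited score used for nothing else, within a tolerance of 1e-06. Of a column's entries 8.01% to 10.1% were at a floor.

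Levels are log2 intensities minus the 75th percentile of their array. A probe was kept if it stood well above background on 2 or more of the 6 arrays, which left 30214, of which 30190 were tested. Of the 16 member probes 12 were named by RefSeq accession and 4, of Tet1 and Tet3, by an older symbol alone. Hairpins are numbered as in the sample titles. The names of the deposited files number the same hairpins 2 and 3, in that order at both days. A gene has the value of its brightest probe unless a probe is named.

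Tests were two-sided linear models of limma 3.58.1 (R 4.3.3), with Benjamini-Hochberg adjustment over all probes and a threshold of 0.05. The knockdown and day contrasts came from 1 fit with both terms. The effect of knockdown within each day, and the difference between days, came from a model with 4 groups, in which the single control of a day is taken to vary as the knockdown pairs do. Hairpin 2 was set against hairpin 1 in a model with terms for vector and day. Scripts were tested on simulated data. Each day was 1 slide, and the control, hairpin 1 and hairpin 2 lay at positions 2, 3 and 4 of each slide, so position and vector cannot be told apart. Deviations of arrays with the same vector correlated across days (r of 0.367, 0.505 and 0.237), against -0.311 to -0.0418 with different vectors. They are deviations from the mean of the 3 arrays of a day, so positive values with the same vector push the others down. They also hold the knockdown effect and slide position, so they do not show that arrays share a culture. The vector was also fitted as a replicate block.

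Precision is limited by the small number of arrays. The members and lists were chosen with earlier results of these data known. All members are given with every probe. Of the other lists, up to 3 genes of largest difference are named; some that this rule would name are not reported here. The 5 genes most like the member of widest range are also named. Alternatives were normexp background correction, quantile normalization, other filters on dim probes, the mean of a gene's probes, the authors' table, a trend and robust prior, the replicate block and leaving out each array.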

Additional observations from a re-analysis of the deposited data

Results flagged for a closer look

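For 3 member probes both hairpins differed from the control in one direction at day 12 and in the opposite direction at day 9. The share of all probes that did so was not counted, so the 3 are not shown to be unusual. For the difference between the days, 0 of 16 member probes had an unadjusted limma p under 0.05, against 1.51% of all probes. Tet3 probe A_51_P199339 was dim, with processed signals of 10.8 to 22.2 on the 6 arrays. The knockdown effect at day 12 minus that at day 9 was -0.92 on the log2 scale for this Tet3 probe (SE 0.39, 95% interval -1.90 to 0.07), with pair differences of -0.70 and -0.55 at day 12 and 0.11 and 0.47 at day 9. It was -0.46 for Dnmt3a probe A_52_P30497 (SE 0.34, 95% interval -1.33 to 0.41), with pairs of -0.18 and -0.35 at day 12 and 0.14 and 0.24 at day 9. It was 0.24 for Tdg probe A_51_P338336 (SE 0.33, 95% interval -0.60 to 1.08), with pairs of 0.11 and 0.10 at day 12 and -0.07 and -0.19 at day 9. Each of these differences was tested as an interaction and none passed over all probes (limma adjusted p = 1). The 2 pairs of a day share 1 control array. The other probes of these 3 genes did not show the opposite directions.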

How the results depend on the processing

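The number of member probes called was 0 in each of the 6 contrasts under every alternative that could be run. The smallest adjusted p of a member, in limma, ran over the settings from 0.163 to 1 for knockdown against control, 0.189 to 0.924 for the days, 0.138 to 1 and 0.367 to 1 for the knockdown at day 9 and day 12, 0.257 to 1 for their difference and 0.0517 to 1 for the hairpins. With the vector as a replicate block, 0 members were called and over all probes 4 for the knockdown and 245 for the days, against 2 and 17 without it. With the hairpin number as a block, 209 probes were called for the knockdown at day 12, 212 at day 9 and 22 for their difference, against 0 without it. Without a block the count over all probes ran from 0 to 3 for the knockdown, 0 to 30 for the days and 0 to 1109 for the hairpins, the last without hairpin 2 at day 12. The direction of knockdown held for Dnmt1, Uhrf1, Dnmt3a, Dnmt3b, Dnmt3l, Tet1 and Tet2 under every setting, and values of other genes near 0 turned. In the knockdown contrast Tet3 had 0.0113 with normexp, and Tdg had 0.0104 in the authors' table and 0.0492 as the mean of its probes. For day 12 against day 9, normexp gave 0.0611 for Dnmt3b and -0.0986 for Tet3, quantile normalization gave 0.00905 for Dnmt3b, the authors' table gave -0.0156 for Tet3, and the mean of probes gave -0.0262 for Tet3 and -0.0649 for Tet2. The cause was not tested. Leaving out 1 array in turn gave -0.132 to 0.107 for Tdg in the knockdown contrast, and between the days -0.0808 to 0.249 for Dnmt3a, -0.198 to 0.115 for Dnmt3b, -0.0693 to 0.171 for Uhrf1, -0.0627 to 0.486 for Tet2 and -0.0756 to 0.186 for Tet3, so these day differences have no settled sign. Leaving out a control array leaves no knockdown effect at its day and no difference between days, and no block can be fitted for the hairpins. With 1 control array a day, the spread of control cells within a day is unknown.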

Other observations

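Germline genes whose promoters are known to be methylated in somatic cells, many of which rely on that methylation for silencing, were counted beside the enzymes. The list was chosen with earlier results of these data known, so its counts describe the list and are not an independent test. Of 16 such genes, 16 were lower in knockdown cells, with a median log2 difference of -0.56, and 16 were higher at day 12 than at day 9, with a median of 0.86. Over all probes the medians were -0.02 and 0.00391. None passed the limma test by its brightest probe, and 12 of 16 had an unadjusted p under 0.05 in each contrast, against 9.87% of all probes for the knockdown and 10.7% for the days. Dazl, the target of the hairpins and so lower by design, is one of them, with -4.30 (SE 0.29, limma adjusted p = 0.0546) on its brightest probe. Sycp1, of the synaptonemal complex, had -1.37 (SE 0.31) in the knockdown contrast and 1.48 (SE 0.29) at day 12 against day 9, and Slc25a31, an ADP/ATP carrier of germ cells, had -1.34 (SE 0.21) and 1.96 (SE 0.19). Asz1, a germ granule gene, had 2.16 (SE 0.32) at day 12 against day 9. Each member gene differed by less between the days than the median of these genes.

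Among 14 measured regulators of methylation in germ cells and the early embryo, 4 were higher and 10 lower in knockdown cells, with a median log2 difference of -0.08. Zfp57, which protects methylation at imprinted loci, had 0.92 (SE 0.19, limma adjusted p = 0.307), a larger difference than any member. Dppa3, which shields methylation in the early embryo, had -0.62 (SE 0.28), and Smchd1, which acts at the inactive X chromosome, -0.56 (SE 0.20). Between the days 3 were higher and 11 lower with a median of -0.16, and Cxxc5 had -0.47 (SE 0.14), Trim28 -0.33 (SE 0.28) and Dppa3 -0.31 (SE 0.26) at day 12 against day 9. Of 13 genes that supply the methyl donor of DNMTs or the 2-oxoglutarate of TETs, 8 were higher and 5 lower in knockdown cells with a median of 0.12. Methionine synthase Mtr had -0.50 (SE 0.37), the serine hydroxymethyltransferase Shmt2 0.40 (SE 0.17) and Idh2 0.32 (SE 0.20). Between the days 4 were higher and 9 lower with a median of -0.11, led by Shmt1 with -0.28 (SE 0.23), Idh2 with -0.23 (SE 0.18) and Ahcy with -0.20 (SE 0.19). None of the genes in these lists passed in either contrast.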
